A study of Homo sapiens with 15 samples.

Results

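The comparison described here sets the C4-2 line that carries S404A ATGL on an ATGL knockout background (titled ATGL KO + S404A ATGL, called KO_S404A below) against the scramble control line (Scramble). The libraries were chosen by those titles, 3 of each line, which makes 6 of the 15 libraries of the series. C4-2 is a castration-resistant subline of the human prostate cancer line LNCaP, and all lines were grown in RPMI with 5 mM glucose and 5% dialyzed serum. Scramble has its own PNPLA2 gene, which encodes adipose triglyceride lipase (ATGL), while KO_S404A lacks it and expresses S404A ATGL, a protein with 1 serine replaced by alanine. The other lines are the knockout itself (KO), its addback of wild-type protein (KO_WT) and its addback of S47A ATGL (KO_S47A), a lipolytically inactive protein according to the labels. All 4 lines other than Scramble therefore share the knockout, so that KO_S404A and Scramble differ by knockout and addback together. Each genotype is 1 line, and whether it was cloned or pooled, and which promoter drives the addback, the sources used here do not state. The labels do not say whether the 3 libraries of a line are separate cultures. P-values therefore measure only how these libraries vary, and that variation may be technical.

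ATGL removes the first fatty acid from triglycerides stored in lipid droplets. ABHD5 activates it, G0S2 inhibits it, hormone-sensitive lipase (LIPE) and monoglyceride lipase (MGLL) continue the breakdown, and the freed fatty acids can be oxidised, re-esterified or used as ligands of nuclear receptors. The serine changed in S47A is the catalytic one, while the serine changed in S404A lies in the C-terminal part of the protein and is a known phosphorylation site. In prostate cancer cells lipid synthesis and androgen signalling are closely linked.

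Counts assigned to genes totalled 40846694, 49253301 and 51662088 in the Scramble libraries and 61352325, 64345775 and 50971324 in the KO_S404A libraries. Levels are CPM, counts scaled to library size, after TMM normalisation, and a gene is called higher or lower at an adjusted p under 0.05 (edgeR's quasi-likelihood test with Benjamini-Hochberg adjustment over 14246 tested genes). All 10 prostate luminal markers checked, KLK2, KLK3 and KRT8 among them, were above 1 CPM in all 6 libraries. Their summed level was 5930 to 6790 CPM in KO_S404A and 8170 to 8690 CPM in Scramble. The basal markers KRT5 and TP63 and all 4 blood markers were at or near 0, while the third basal marker, KRT14, was at 1.38 to 1.78 CPM in KO_S404A and 4.24 to 4.63 CPM in Scramble. Markers of other cell types were low in both lines: the summed fibroblast markers, mostly COL1A1, were at 16.3 to 22.2 CPM in KO_S404A and 10.4 to 14.6 CPM in Scramble, with PDGFRA at 0. Library 3 stood apart in both lines, by list medians relative to the mean of the Scramble libraries. The median of 47 ATF4 and amino acid response genes was 0.73, 0.41 and -0.88 in KO_S404A and 0.26, 0.36 and -0.59 in Scramble. That of 49 DNA replication and mitosis genes was -0.78, -0.20 and 0.63 in KO_S404A and -0.20, -0.28 and 0.49 in Scramble. In bulk RNA, fewer cells of a type and less RNA per cell cannot be told apart.

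PNPLA2 was the gene that the design altered, and its transcript checked the labels. Scramble libraries had 54.3, 47.1 and 45.3 CPM and KO_S404A libraries 303, 443 and 493 CPM, so that the groups lay far apart and the lowest KO_S404A library was the first. PNPLA2 rose by 3.08 on the log2 scale (SE 0.21, adjusted p = 1.17e-06), an 8.45-fold difference. The knockout alone had 11.3 ± 1.99 CPM (SD, n = 3), KO_WT had 220 ± 18.1 CPM and KO_S47A had 129 ± 30.6 CPM. KO_S404A was thus the line with the highest mean PNPLA2 level. Counted reads do not separate the endogenous transcript from the addback transcript, and a transcript with a frameshift still yields reads, so that these values say nothing about protein.

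Against Scramble, 443 of 14246 genes were called in KO_S404A (3.11% of genes tested), 191 of them higher (1.34%) and 252 lower (1.77%). Of the called genes 182 differed by at least 2-fold, and 15 were at least 8-fold higher and 31 at least 8-fold lower. At an unadjusted p under 0.05 there were 2243 genes, 15.7% of those tested. For all 443 called genes the CPM ranges of the 2 lines lay apart, as they did for 18.2% of all tested genes. The median log2 difference over all tested genes was 0.03, and the median halfwidth of the 95% interval of a gene was 0.36 on the log2 scale. The count of calls fell to 247, 240 and 263 when Scramble library 1, 2 or 3 was left out, and it was 135 when only the 6 libraries of the 2 lines were fitted. Without library 3 of every line it was 981.

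**Figure D1:**
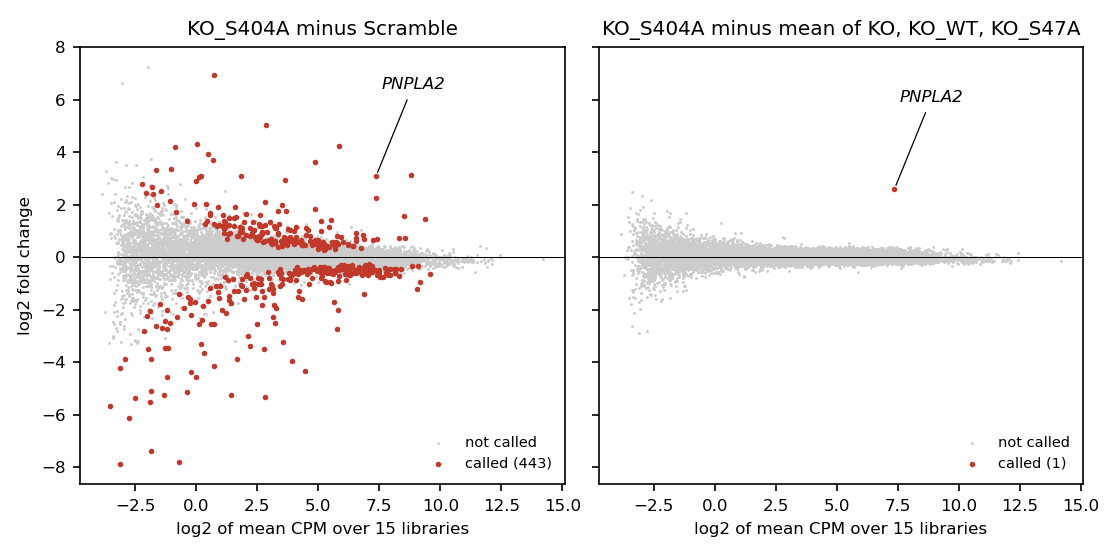
Each dot is a tested gene, with the log2 of its mean CPM over the 15 libraries on the x axis and its log2 fold change on the y axis, for KO_S404A minus Scramble on the left and KO_S404A minus the mean of the other knockout-derived lines on the right. Red dots are called genes, 443 on the left and 1, PNPLA2, on the right.

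The called genes with at least 10 CPM in the higher line were ranked by log2 fold change, and the first 10 on each side are described here. Beside PNPLA2, the 10 highest in KO_S404A included 3 cell surface receptors, an RNA-binding protein, 2 enzymes and a cancer-testis antigen. MAGEA10, a cancer-testis antigen normally silent outside the germ line, was at 3.88, 4.29 and 3.60 CPM in Scramble and at 78.0, 66.8 and 76.2 CPM in KO_S404A. It rose by 4.23 on the log2 scale (SE 0.10, adjusted p = 1.08e-11), and no KO_S404A library came near the Scramble values. EPHA3, a receptor tyrosine kinase for ephrin-A ligands, was at 63.5, 67.8 and 55.9 CPM in Scramble and at 672, 489 and 462 CPM in KO_S404A. Its log2 fold change was 3.12 (SE 0.17, adjusted p = 3.4e-07), with the first KO_S404A library the highest. RALYL, an RNA-binding protein of the RALY family, was at 3.35, 3.81 and 1.99 CPM in Scramble and at 48.7, 37.7 and 25.8 CPM in KO_S404A (log2 fold change 3.62, adjusted p = 5.67e-05). A pair of adhesion G protein-coupled receptors also rose. GPR133 (ADGRD1) went from 2.35, 2.30 and 1.58 CPM to 19.0, 17.1 and 11.3 CPM (log2 fold change 2.93, adjusted p = 2.34e-05), and GPR126 (ADGRG6) from 45.7, 43.5 and 32.3 CPM to 264, 206 and 115 CPM (log2 fold change 2.27, adjusted p = 0.00174). Library 3 was the lowest of its line for RALYL, GPR133 and GPR126, in Scramble as in KO_S404A. The remaining members of the 10 highest at that level were the potassium channel gene KCNH8 (2.11), butyrylcholinesterase gene BCHE (1.97), the mitochondrial acyl-CoA dehydrogenase gene ACADL (1.85) and the secreted matrix-associated protein gene ADAMTSL3 (1.74), given as log2 fold changes.

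Of the 10 lowest genes at that level, LPL was under 0.5 CPM in every KO_S404A library, while THBS1 was at 20.3 CPM or more there. SYT4, a synaptotagmin of vesicle membranes, was at 36.3, 35.2 and 24.2 CPM in Scramble and at 0.61, 0.74 and 1.03 CPM in KO_S404A. It fell by 5.33 on the log2 scale (SE 0.35, adjusted p = 1.06e-06), with every KO_S404A library far below every Scramble library. LPL, the lipoprotein lipase that frees fatty acids from circulating triglyceride, was at 11.7, 9.03 and 15.0 CPM in Scramble and at 0.19, 0.26 and 0.49 CPM in KO_S404A. It fell by 5.27 on the log2 scale (SE 0.57, adjusted p = 0.000116). CAMK2N1, an inhibitor of the calcium/calmodulin-dependent kinase II, was at 99.99, 126 and 42.8 CPM in Scramble and at 6.64, 4.52 and 1.97 CPM in KO_S404A, a decrease by 4.35 on the log2 scale (SE 0.55, adjusted p = 0.000486). Here too library 3 was the lowest of both lines, and the groups did not overlap. COL12A1, a fibril-associated collagen, fell from 71.1, 71.7 and 42.6 CPM to 5.23, 3.89 and 2.87 CPM (log2 fold change -3.95, adjusted p = 1.17e-06).

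Further down the same side were the organic cation transporter SLC22A3 (log2 fold change -3.89), CCDC85A (-3.50), the pseudokinase TRIB2 (-3.40), AGR2, a protein disulfide isomerase of secretory epithelia (-3.23), the nectin PVRL3, now NECTIN3 (-3.01), and THBS1, thrombospondin 1 (-2.75). AGR2 was at 39.3, 39.4 and 33.6 CPM in Scramble and at 5.94, 3.00 and 3.05 CPM in KO_S404A, and THBS1 at 171, 136 and 222 CPM and at 20.3, 21.2 and 37.2 CPM. For both genes the ranges of the 2 lines lay apart. All 20 of the 10 highest and 10 lowest genes kept their call in all 14 alternatives assessed for this comparison. Under a description chosen after the values were seen, 3 genes were close to on or off, with all libraries of 1 line under 0.5 CPM and all of the other at 5 CPM or more. DDX53, an X-linked cancer-testis gene, was at 0.30, 0.21 and 0.33 CPM in Scramble and at 9.52, 11.0 and 7.01 CPM in KO_S404A, while LPL and the lipid phosphatase-related gene LPPR1 (5.66, 7.95 and 6.32 CPM against 0.37, 0.30 and 0.45 CPM) were the ones off in KO_S404A.

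**Figure D2:**
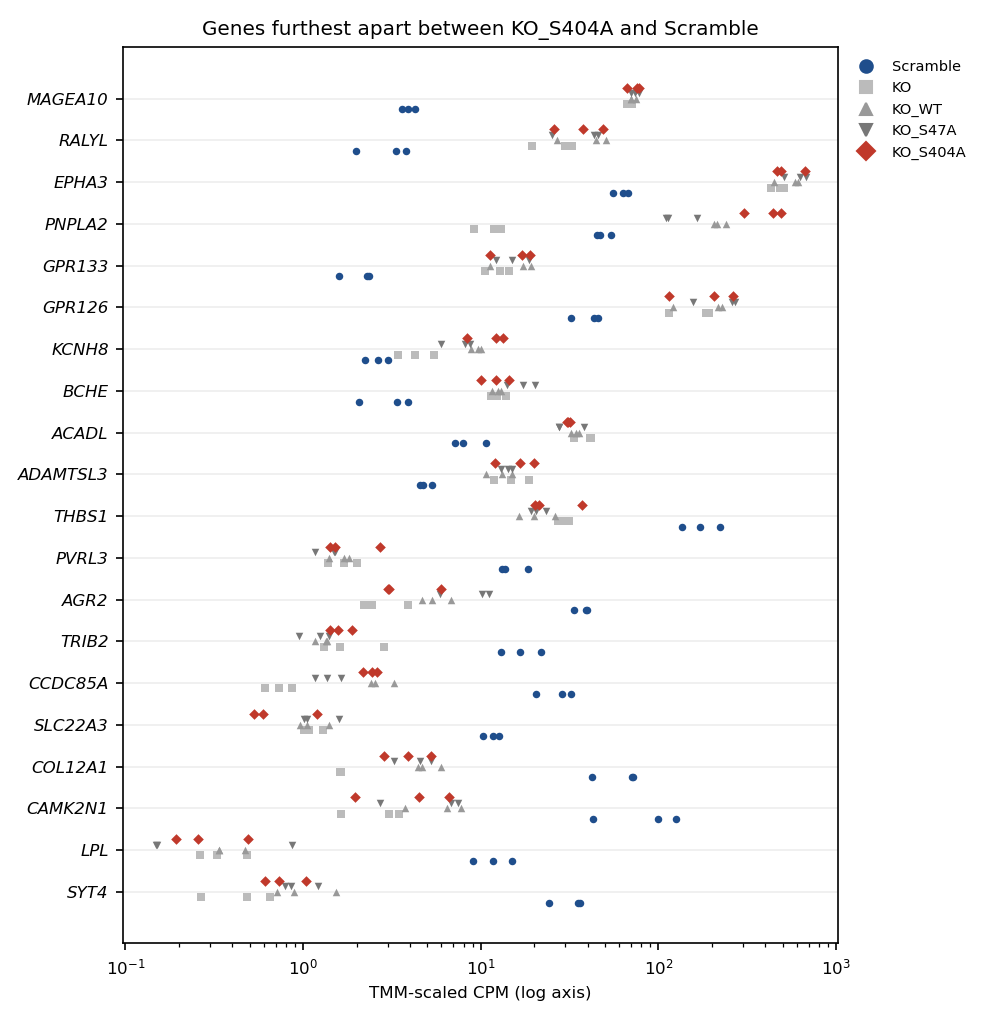
TMM-scaled CPM (log x axis) of the 10 highest and 10 lowest genes, 1 point per library and 1 colour and marker per line. Blue Scramble points stand apart from the red KO_S404A points in every gene. Grey points are KO, KO_WT and KO_S47A, and for 17 of the 19 genes other than PNPLA2 the KO_S404A mean lies within their range.

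Because every knockout-derived line shares the knockout, KO_S404A was also set against the mean of KO, KO_WT and KO_S47A, a comparison that does not use the Scramble libraries' mean. PNPLA2 was the only gene called (0.00702% of genes tested), higher by 2.59 on the log2 scale (SE 0.14, adjusted p = 8.41e-07), and 811 genes were at an unadjusted p under 0.05. DESeq2 called 2 genes, PNPLA2 and the Wnt secretion factor WLS. The median halfwidth of the 95% interval in this comparison was 0.29 on the log2 scale. For the 19 genes of the 10 highest and 10 lowest other than PNPLA2, the difference between KO_S404A and the other 3 lines ran from -0.57 to 0.77, and the lowest adjusted p among them was 0.822. The 95% interval of that difference lay within 1 log2 unit of 0 for 15 of the 19, and their bounds ran from -1.32 to 1.12. Thus MAGEA10 had mean levels of 68.3 CPM in KO, 71.3 CPM in KO_WT and 73.8 CPM in KO_S47A, and EPHA3 had 476, 550 and 604 CPM. For comparison with the 443 genes of KO_S404A, the knockout, wild-type and S47A lines had 383 (2.69%), 494 (3.47%) and 544 (3.82%) genes called against the same Scramble libraries, which these comparisons share.

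Set against each other knockout-derived line in turn, KO_S404A differed in few genes. Against the knockout 3 genes were called (0.0211%), all higher in KO_S404A: PNPLA2 by 5.19 (SE 0.23, adjusted p = 4.71e-08), CCDC85A by 1.71 (SE 0.21, adjusted p = 0.00735) and WLS by 1.04 (SE 0.12, adjusted p = 0.00365). Without the third library of every line, 403 genes were called in that comparison. Against KO_WT, which differs in the protein put back, edgeR called 0 genes (0%) with 1239 at an unadjusted p under 0.05, and DESeq2 called 0. PNPLA2 itself was higher than in KO_WT by 0.91 on the log2 scale (95% interval 0.49 to 1.32), with an adjusted p of 0.546. Against KO_S47A only PNPLA2 was called (0.00702%), higher by 1.68 (SE 0.20, adjusted p = 0.0109).

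CCDC85A and WLS were lower in KO_S404A than in Scramble and lower still in the knockout. CCDC85A, a coiled-coil protein of cell junctions, was at 28.8, 32.4 and 20.6 CPM in Scramble and at 2.17, 2.61 and 2.44 CPM in KO_S404A, with means of 0.73 CPM in KO, 2.74 CPM in KO_WT and 1.39 CPM in KO_S47A. WLS, a transport receptor that Wnt ligands need for secretion, was at 20.8, 20.9 and 21.1 CPM in Scramble and at 11.8, 12.3 and 10.7 CPM in KO_S404A, with means of 5.65 CPM in KO, 12.7 CPM in KO_WT and 7.74 CPM in KO_S47A. WLS fell by 0.85 on the log2 scale against Scramble (SE 0.12, adjusted p = 0.00104), and the libraries of the 2 lines did not overlap. The S404A and wild-type addback lines differed in WLS by -0.13 (95% interval -0.38 to 0.12) and in CCDC85A by -0.18 (95% interval -0.60 to 0.24).

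In the list of lipid droplets and lipolysis 1 gene was called beside PNPLA2. Of 21 tested members of that list 2 were higher and 0 lower (9.52% called, beside 3.11% of all genes), and the list median was 0.08. That share includes PNPLA2, the gene that the design altered. MGLL, the lipase of the final step, was at 20.1, 19.4 and 24.7 CPM in Scramble and at 27.4, 35.9 and 36.3 CPM in KO_S404A, and rose by 0.63 on the log2 scale (SE 0.13, adjusted p = 0.0133). This call was lost in the fit of the 6 libraries alone (adjusted p = 0.163) and without Scramble library 1 (0.081), Scramble library 2 (0.0805) or KO_S404A library 2 (0.0558). ABHD5, the ATGL activator, was at 28.5, 29.0 and 33.4 CPM in Scramble and at 27.9, 26.9 and 30.8 CPM in KO_S404A (log2 fold change -0.09, adjusted p = 0.722), and its ranges overlapped. LIPE differed by -0.35 on the log2 scale (adjusted p = 0.543), ABHD6, another monoglyceride hydrolase, -0.30 (adjusted p = 0.102) and the droplet coat protein PLIN3 0.18 (adjusted p = 0.552). PLIN2 had under 0.3 CPM in every library of both lines, and G0S2, PLIN1 and PLIN5 did not pass the filter on low counts.

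Lists of fatty acid uptake, of triglyceride and phospholipid synthesis and of fatty acid oxidation held calls in both directions. Their shares called were 10.5%, 6.9% and 10.8%, beside 3.11% of all genes. In the uptake list, 1 of 19 members was higher, the fatty acid transport family member SLC27A3 (log2 fold change 1.17, adjusted p = 0.0189), and 1 was lower, LPL, and the median was -0.01. Triglyceride and phospholipid synthesis had 1 of 29 higher, the acyltransferase AGPAT4 (1.59, adjusted p = 0.0066), and 1 lower, the phosphatidate phosphatase LPIN1 (-0.49, adjusted p = 0.0414). In the list of fatty acid oxidation, 2 of 37 members rose and 2 fell, with a median of -0.04. ACADL was at 7.91, 7.21 and 10.8 CPM in Scramble and at 30.6, 30.9 and 31.7 CPM in KO_S404A (log2 fold change 1.85, SE 0.16, adjusted p = 1.61e-05), tightly grouped in KO_S404A and apart from Scramble. The peroxisomal oxidase ACOX2 rose as well, from 1.30, 1.01 and 1.53 CPM to 3.96, 3.69 and 3.42 CPM (1.52, adjusted p = 0.00052). AMACR, a racemase of branched fatty acid oxidation and a prostate cancer marker, fell from 57.6, 64.8 and 51.1 CPM to 30.4, 33.5 and 28.7 CPM (-0.91, adjusted p = 0.00454), and the carnitine carrier SLC25A20 fell (log2 fold change -0.48, adjusted p = 0.0489).

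In fatty acid synthesis 1 of 24 members rose and 1 fell (8.33% called, beside 3.11% of all genes). SCD5, a stearoyl-CoA desaturase, was at 12.7, 14.5 and 14.2 CPM in Scramble and at 25.1, 23.9 and 26.2 CPM in KO_S404A (log2 fold change 0.86, adjusted p = 0.00174), while the mitochondrial malonyl transferase MCAT fell (log2 fold change -0.52, adjusted p = 0.0357). FASN, the fatty acid synthase, ran from 1166 to 1520 CPM in Scramble and stood at 618, 1277 and 1322 CPM in KO_S404A, so that only the first library was low (adjusted p = 0.669). The lists of lipid-sensing transcription factors (18 tested) and of AMPK subunits and upstream kinases (14 tested) had 0 calls each by edgeR and 1 lower call each by DESeq2. With replicate number as a block edgeR called 1 lower in the first, and 1 higher and 3 lower in the second. At an unadjusted p under 0.05 the first had 1 member higher and 1 lower, and the second 1 higher and 4 lower. Of the called lipid genes, ACADL, ACOX2, AMACR, SCD5 and LPL kept their call in every alternative. The call of SLC27A3 was lost without Scramble library 1 or 2 or KO_S404A library 1 or 3 (adjusted p from 0.0558 to 0.109), that of LPIN1 without any 1 Scramble library or KO_S404A library 1 or 3 (0.0736 to 0.126), that of MCAT without Scramble library 2 or 3 or any 1 KO_S404A library (0.0566 to 0.15), and that of SLC25A20 without Scramble library 1 or 2 or KO_S404A library 2 or 3 (0.107 to 0.186). These 4 and AGPAT4 (adjusted p = 0.119) also lost their calls in the fit of the 6 libraries alone. The SLC25A20 call was lost without the filter on low counts too (0.0555).

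The cholesterol synthesis list had the lowest median of the lists. Of 26 tested members 4 fell and 0 rose (15.4% called, beside 3.11% of all genes), with a list median of -0.29 beside 0.03 for all tested genes, and 10 were lower and 0 higher at an unadjusted p under 0.05, which 15.7% of all genes reached. INSIG1, the sterol-induced brake on SREBP processing, was at 260, 258 and 242 CPM in Scramble and at 133, 160 and 151 CPM in KO_S404A, and fell by 0.78 on the log2 scale (SE 0.14, adjusted p = 0.00777). The lanosterol demethylase CYP51A1 fell from 274, 276 and 307 CPM to 181, 175 and 225 CPM (log2 fold change -0.56, adjusted p = 0.0461). Named after their values were seen, FDFT1, squalene synthase, fell by 0.35 (adjusted p = 0.0382) and HMGCS1, HMG-CoA synthase, by 0.31 on the log2 scale (adjusted p = 0.0411). INSIG1 had means of 221 CPM in KO, 190 CPM in KO_WT and 184 CPM in KO_S47A, and KO_S404A differed from these by -0.58 (95% interval -0.89 to -0.27), -0.36 (-0.67 to -0.05) and -0.32 (-0.62 to -0.01), none of them called. The INSIG1 call held in every alternative, whereas 1 member was called in the fit of the 6 libraries alone or when any Scramble library or KO_S404A library 1 or 2 was left out, and 12 when library 3 of every line was.

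The lists of the tricarboxylic acid cycle, glycolysis and respiratory chain subunits held 1 gene called by edgeR. A complex III subunit outside these lists, UQCR10, was called lower and is given with chromosome 22. In the tricarboxylic acid cycle list 1 of 27 members was called, lower (3.7%, beside 3.11% of all genes), with a median of -0.12. In the fit of the 6 libraries alone 0 were called. In glycolysis edgeR called 0 of 25 members and DESeq2 1, lower, with 2 higher and 3 lower at an unadjusted p under 0.05 and a median of -0.12. Among 52 nuclear-encoded respiratory chain subunits edgeR called 0, while 20 were lower and 0 higher at an unadjusted p under 0.05 (15.7% of all genes passed that threshold), 2 of 52 lay above 0 and the median was -0.20. With replicate number as a block edgeR called 2 lower in each of the tricarboxylic acid cycle and glycolysis lists. DESeq2 called 5 of the respiratory chain subunits lower, and edgeR 6 without library 3 of every line and 9 with that block. Relative to the mean of the Scramble libraries, the median of these subunits was -0.11, -0.42 and -0.11 in the KO_S404A libraries. In the Scramble libraries it was 0.04, 0.03 and -0.07, so that the second KO_S404A library was the lowest.

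**Figure D3:**
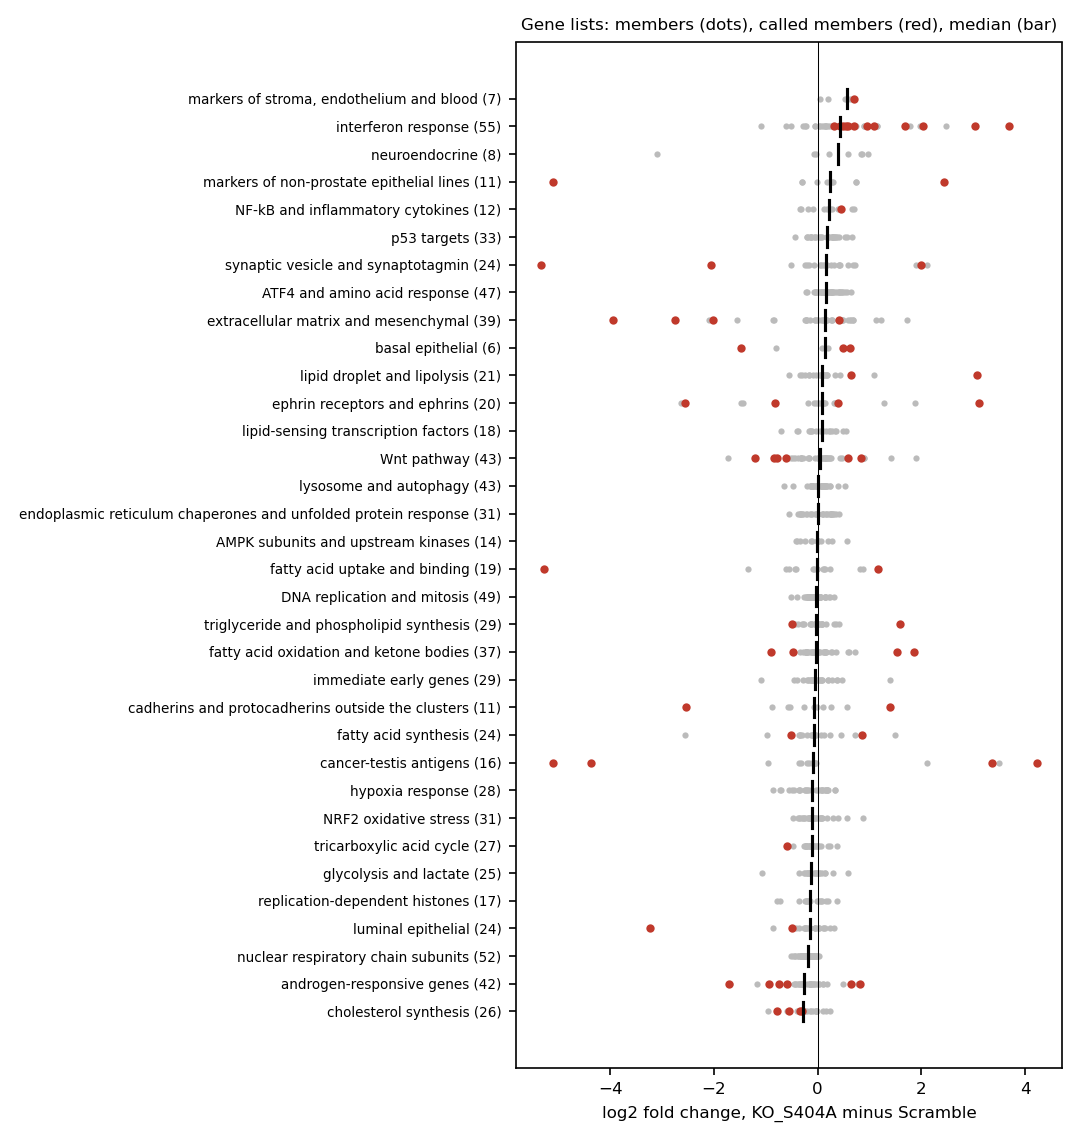
Log2 fold changes (KO_S404A minus Scramble, x axis) of the tested members of each gene list, with the number tested in brackets, called members in red and the list median as a black bar. Interferon response members sit to the right with 12 red dots, and cholesterol synthesis and androgen-responsive genes have the lowest medians, -0.29 and -0.27.

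Androgen-responsive genes had calls in both directions. Of 42 tested members of that list 2 rose and 4 fell (14.3% called, beside 3.11% of all genes), and the median was -0.27. The counts were 3 higher and 12 lower without library 3 of every line, 0 and 2 in the fit of the 6 libraries alone, 3 and 6 with DESeq2, and 0 higher without any 1 Scramble library or KO_S404A library 2. The transcription factor MAF was among those that rose (log2 fold change 0.81, adjusted p = 0.0263). TRPM8, a cold-sensing calcium channel of prostate epithelium, fell from 117, 108 and 95.3 CPM to 35.1, 29.4 and 33.5 CPM (log2 fold change -1.71, adjusted p = 1.79e-05), and KLK2, a prostate kallikrein, from 926, 866 and 825 CPM to 466, 381 and 514 CPM (-0.94, adjusted p = 0.00124). Both held in every alternative. ABCC4 (-0.60, adjusted p = 0.00326) and TMPRSS2 (-0.74, adjusted p = 0.0286) were the other 2 and are named after their values were seen. KLK3, which encodes prostate-specific antigen, stood at 3535, 3530 and 3483 CPM in Scramble and at 2414, 1830 and 2831 CPM in KO_S404A, without overlap, but its log2 fold change of -0.58 was not called (adjusted p = 0.134). The KLK genes are close paralogs, and the treatment of their shared reads during counting is not stated in those sources. MAF lost its call without any 1 of the Scramble libraries and without KO_S404A library 2 (adjusted p from 0.0732 to 0.109) and in the fit of the 6 libraries alone (0.0617).

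Among 24 luminal genes 0 were higher and 6 lower at an unadjusted p under 0.05, which 15.7% of all genes reached. DESeq2 called 4 lower. By edgeR AGR2 and the choline transporter-like gene SLC44A4 (log2 fold change -0.49, adjusted p = 0.0263) fell and 0 rose (8.33% called, beside 3.11% of all genes). KRT14, a basal keratin, was at 4.63, 4.25 and 4.52 CPM in Scramble and at 1.68, 1.38 and 1.78 CPM in KO_S404A (-1.47, adjusted p = 0.000203). The hemidesmosome integrins ITGB4 (0.62, adjusted p = 0.00244) and ITGA6 (0.48, adjusted p = 0.00844) rose. That made 2 higher and 1 lower of 6 tested basal genes (50% called, beside 3.11% of all genes). Of 8 neuroendocrine genes edgeR called 0 and DESeq2 1, lower, with 1 higher and 1 lower at an unadjusted p under 0.05. SLC44A4 lost its call without Scramble library 1 or 2 or KO_S404A library 2 or 3 (adjusted p from 0.0683 to 0.099), and ITGA6 without Scramble library 2 (0.0698). In the fit of the 6 libraries alone SLC44A4 (0.208), ITGA6 (0.108) and ITGB4 (0.091) all lost their calls.

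Called interferon-stimulated genes were all higher in KO_S404A. Of 55 tested members 12 rose and 0 fell (21.8% called, beside 3.11% of all genes), 29 were higher and 0 lower at an unadjusted p under 0.05 (15.7% of all genes), 47 lay above 0, and the list median was 0.43. Relative to the mean of the Scramble libraries, the list median was 0.35, 0.38 and 0.35 in the KO_S404A libraries. In the Scramble libraries, which lie around 0 by that choice of reference, it was 0.01, -0.02 and 0.03. IFI16, a nuclear DNA sensor, was at 0.05, 0.04 and 0.35 CPM in Scramble and at 2.88, 1.82 and 1.35 CPM in KO_S404A (log2 fold change 3.69, SE 0.64, adjusted p = 0.005). SAMD9, an antiviral factor, was at 0.03, 0.17 and 0.22 CPM and at 1.05, 1.32 and 1.13 CPM (3.04, adjusted p = 0.00792). Both genes were thus barely counted in Scramble and low in KO_S404A, and both lost their call in the fit of the 6 libraries alone (adjusted p = 0.0646 and 0.059).

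The other 10 called members are named after their values were seen. PARP14, a mono-ADP-ribosyltransferase, was at 7.53, 7.99 and 7.27 CPM in Scramble and at 14.7, 16.8 and 16.6 CPM in KO_S404A (log2 fold change 1.08, adjusted p = 0.000236). The RNA-binding effectors IFIT2 (2.04) and IFIT3 (1.68), the membrane proteins IFITM1 (0.94) and IFITM3 (0.44), the dynamin-like GTPase MX1 (0.71) and the RNA-dependent kinase EIF2AK2 (0.31) rose as well. So did the antigen presentation genes HLA-E (0.59), HLA-B (0.54) and TAP1 (0.50), the last a peptide transporter that went from 23.3, 24.2 and 23.7 CPM to 36.7, 32.0 and 31.7 CPM. ISG15, a ubiquitin-like modifier (0.03, adjusted p = 0.959), had overlapping ranges. The IFITM and HLA genes have near-identical family members, so their counts are uncertain to that extent. The number of called members was 5, 5 and 6 without Scramble library 1, 2 or 3, 8 without any KO_S404A library and 1 in the fit of the 6 libraries alone, while the list median stayed between 0.38 and 0.43 in the alternatives. Against the mean of the other knockout-derived lines the list median was 0.01 with 0 members called by edgeR, and the medians of KO, KO_WT and KO_S47A minus the same Scramble libraries were 0.32, 0.40 and 0.38.

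**Figure D4:**
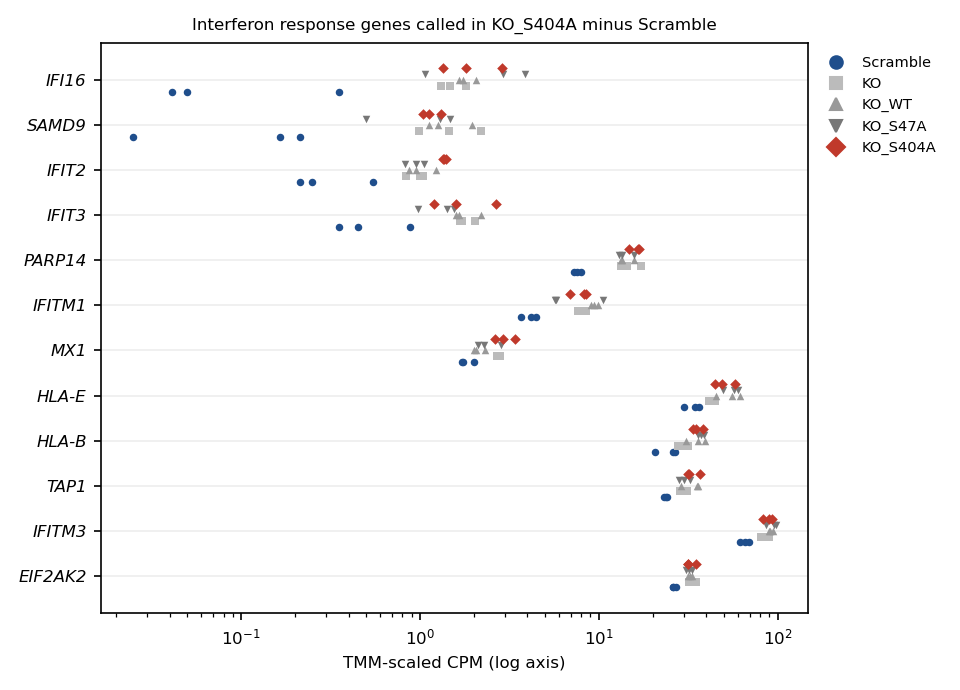
TMM-scaled CPM (log x axis) of the 12 called interferon response genes, 1 point per library and 1 colour and marker per line. Blue Scramble points lie to the left of the red KO_S404A points in each gene, and grey points are the other knockout-derived lines.

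Many interferon-stimulated genes carry an interferon-stimulated response element before their start, and the promoters of 4 called members are shown because they hold such a match. Sequences come from RefSeq (GRCh38.p14), each covering the 160 bases before the annotated start in the direction of the gene, with each match to GAAA, any 2 bases and GAAA again, on either strand, in capitals. PARP14 lies at chr3:122680679-122680838 on the plus strand, TAP1 at chr6:32853705-32853864 on the minus strand, SAMD9 at chr7:93117980-93118139 on the minus strand and IFIT3 at chr10:89327837-89327996 on the plus strand.
PARP14: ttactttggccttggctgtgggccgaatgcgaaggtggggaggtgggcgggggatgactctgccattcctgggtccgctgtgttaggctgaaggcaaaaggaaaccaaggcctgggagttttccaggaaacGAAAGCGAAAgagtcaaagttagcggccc
TAP1: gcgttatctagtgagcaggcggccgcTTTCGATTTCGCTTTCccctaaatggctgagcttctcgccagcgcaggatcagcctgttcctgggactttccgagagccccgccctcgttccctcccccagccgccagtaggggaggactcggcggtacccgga
SAMD9: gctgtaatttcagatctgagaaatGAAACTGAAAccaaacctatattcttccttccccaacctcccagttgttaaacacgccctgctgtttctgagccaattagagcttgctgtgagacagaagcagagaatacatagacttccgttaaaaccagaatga
IFIT3: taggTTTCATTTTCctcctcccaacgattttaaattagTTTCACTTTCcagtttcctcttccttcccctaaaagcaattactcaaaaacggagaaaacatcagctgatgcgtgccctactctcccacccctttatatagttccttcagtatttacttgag
The capitals in TAP1 are 2 overlapping matches and those in IFIT3 are 2 separate ones. In the 250 bases before the start, the motif was in 6 of 10 called members with a promoter entry (60%) and in 18 of 33 members that were not called (54.5%), beside 253 of 11204 tested genes (2.26%). A match describes letters in this window and was not tested as a binding site.

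Genes of chromosome 22 had the lowest median of all chromosomes. Of 370 tested genes of chromosome 22 (RefSeq assignment by gene identifier), 38 fell and 1 rose, so that 10.5% were called, and 78.4% lay below 0. Their median log2 fold change was -0.28, while the medians of the other chromosomes ran from -0.02 to 0.11. Relative to all libraries the median of these genes was 0.28, 0.25 and 0.27 in Scramble and -0.05, 0.03 and -0.0033 in KO_S404A, so that the 3 libraries of each line lay close together. In KO_S404A minus the mean of the other knockout-derived lines it was 0.08. UQCR10, a complex III subunit, fell from 164, 164 and 163 CPM to 104, 93.9 and 115.7 CPM (-0.65, adjusted p = 0.00766), and TSPO, a cholesterol-binding protein of the outer mitochondrial membrane, from 118, 112 and 109 CPM to 78.6, 73.6 and 71.6 CPM (-0.60, adjusted p = 0.0125). APOBEC3F, a cytidine deaminase and the gene that rose, went from 4.15, 5.84 and 5.28 CPM to 12.7, 11.6 and 9.00 CPM (1.12, adjusted p = 0.00312). UQCR10, TSPO and APOBEC3F are named after their values were seen, and MCAT above is on this chromosome too.

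**Figure D5:**
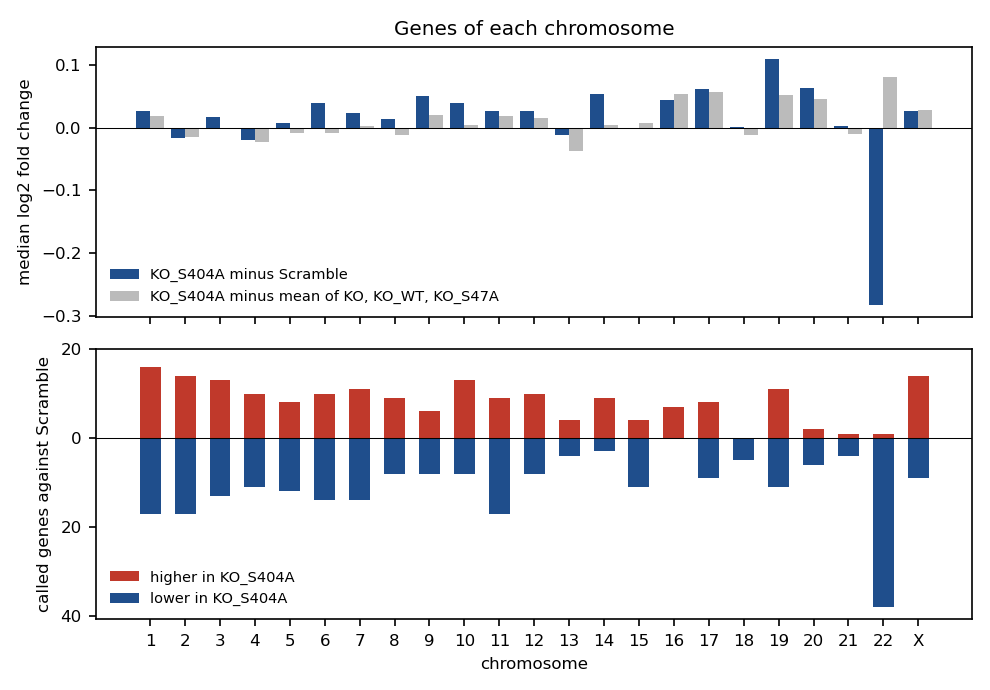
Top, median log2 fold change of the tested genes of each chromosome, in blue for KO_S404A minus Scramble and in grey for KO_S404A minus the mean of KO, KO_WT and KO_S47A. Bottom, called genes per chromosome against Scramble, higher in red above 0 and lower in blue below it, where chromosome 22 has the lowest median, -0.28, with 38 genes lower and 1 higher.

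Matrix, adhesion and guidance genes held some of the largest differences. In the matrix and mesenchymal list, 1 of 39 rose, the laminin chain LAMB1 (log2 fold change 0.41, adjusted p = 0.034), and 3 fell. That made 10.3% called, beside 3.11% of all genes. The LAMB1 call was lost without Scramble library 1 or 2 or any 1 KO_S404A library (adjusted p from 0.0585 to 0.168), without the filter on low counts (0.057) and in the fit of the 6 libraries alone (0.258). Those that fell were COL12A1, THBS1 and FN1, fibronectin, named after its values were seen, which was at 173, 128 and 150 CPM in Scramble and at 32.1, 41.8 and 37.1 CPM in KO_S404A (-2.02, adjusted p = 3e-06). The list median was 0.15, opposite in sign to these 3 genes. Among 20 ephrins and ephrin receptors (20% called) EPHA3 and EPHB2 (0.40, adjusted p = 0.0494) rose and EFNB2 and EPHA6 (-0.83, adjusted p = 0.0407) fell. EFNB2, an ephrin-B ligand, was at 13.3, 13.0 and 24.6 CPM in Scramble and at 1.69, 2.28 and 4.67 CPM in KO_S404A (-2.56, adjusted p = 0.00625). EPHB2 and EPHA6 lost their calls without any 1 of the Scramble libraries (adjusted p from 0.0691 to 0.24), EPHB2 also without any 1 KO_S404A library and EPHA6 without KO_S404A library 2 or 3 (0.076 to 0.148), and both in the fit of the 6 libraries alone (0.318 and 0.13). EPHB2 lost its call in 11 of the 14 alternatives, among them the fit without library 3 of every line (0.0711). PCDH7, a protocadherin, rose from 10.1, 8.72 and 15.7 CPM to 27.0, 31.8 and 32.1 CPM (1.39, adjusted p = 0.000835), and PCDH20 fell (-2.53, adjusted p = 0.0139), among 11 cadherins and protocadherins tested (18.2% called). The PCDH20 call was lost without Scramble library 3 or KO_S404A library 1 or 2 (adjusted p from 0.0557 to 0.0706).

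In the Wnt pathway 2 of 43 tested genes rose and 4 fell (14% called, beside 3.11% of all genes). WNT5A, a ligand of the non-canonical branch, was at 14.1, 19.0 and 15.5 CPM in Scramble and at 7.50, 7.74 and 5.88 CPM in KO_S404A, and fell (log2 fold change -1.20, adjusted p = 0.00191) with no overlap. The others that fell were WLS and, named after their values were seen, the receptor FZD4 (-0.61, adjusted p = 0.00172) and the receptor-degrading ligase RNF43 (-0.79, adjusted p = 0.0186). NKD2, a Dishevelled antagonist (0.83, adjusted p = 0.0203), and TCF7L2, a transcription factor of the pathway (0.59, adjusted p = 0.0181), rose. NKD2 lost its call without Scramble library 2 or 3 or KO_S404A library 1 or 2 (adjusted p from 0.0631 to 0.0977) and TCF7L2 without Scramble library 1 or 2 or KO_S404A library 2 or 3 (0.0501 to 0.0875). Both lost it in the fit of the 6 libraries alone (0.182 and 0.127). Calls of WNT5A and WLS held in every alternative.

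Cancer-testis antigens split by gene. Of 16 tested, MAGEA10 and MAGEC2 rose and CTAG2 and MAGEA4 fell (25% called, beside 3.11% of all genes). CTAG2 was at 4.08, 3.04 and 3.15 CPM in Scramble and at 0.21, 0.09 and 0.20 CPM in KO_S404A (log2 fold change -4.37, adjusted p = 9.14e-05). MAGEA4 was at 1.15, 1.68 and 0.98 CPM in Scramble and at 0, 0.02 and 0.10 CPM in KO_S404A, close to the limit of counting. MAGEA genes resemble each other closely, so reads shared between them make these counts uncertain. MAGEC2 (adjusted p = 0.0107), named after its values were seen, stayed under 1 CPM in all 6 libraries.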

How the data were processed

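Poly(A) RNA of 5 C4-2 lines, 3 libraries each, was prepared with a directional kit, per the labels' protocols. The authors deposited whole-number read counts per gene, not normalized, and FPKM values. Per the submitters' processing notes the tools included CASAVA and STAR, with no version. Build, gene annotation and strand setting are not given in the sources used, so reads of overlapping or antisense genes cannot be told apart. The FPKM values deposited beside the counts were used for checks only. Each table lists 20806 genes. A further 5 rows of unassigned reads held 13.2% to 20.6% of a library and were excluded throughout. Gene counts ran from 40846694 to 64345775 per library, and no libraries of a line agreed within sampling noise (chi-square per degree of freedom 8.11 to 239 over genes with at least 20 counts).

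Counts were analysed with edgeR 4.0.16 in R 4.3.3: filterByExpr kept 14246 genes, TMM scaled the libraries, and a quasi-likelihood model with 1 mean per line was fitted to all 15 libraries (10 residual degrees of freedom). Adjusted p-values are Benjamini-Hochberg values over all tested genes, and a gene is called under 0.05. Standard errors are approximate, taken as |log2 fold change| over the root of edgeR's F statistic, and 95% intervals were built from it. Medians relative to all libraries, given for chromosome 22, use log2 CPM with a prior count of 2. List medians relative to the mean of the Scramble libraries use log2 of CPM plus a small constant. On data simulated for KO_S404A minus Scramble over 14117 genes, the fit recovered 60% of 2-fold and 85.9% of 4-fold changes. It also called 6 unchanged genes. These numbers describe simulated counts only. Some real libraries deviated alike in both lines, as described below. Whether the numbers carry over to such libraries was not tested.

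The members and gene lists were chosen with earlier results of these data known. Named genes are PNPLA2, the 10 called genes furthest in each direction (at least 10 CPM in the higher line, ranges apart, plain symbol on 1 entry), genes that differ from the other knockout-derived lines, up to 2 called genes per list and direction (at least 1 CPM), and all tested lipolysis genes. Lists are described by counts and medians, with no test of a list. Alternatives were a replicate block, DESeq2 1.42.0, RLE size factors, no filter, a filter of 1 CPM in 3 libraries with 100 counts in total, libraries 1 and 2 only, a fit of the 2 lines only, no chromosome 22 genes, and leaving out 1 library at a time. For KO_S404A minus Scramble only leave-outs of libraries of those 2 lines were assessed. Promoters and chromosomes come from RefSeq (GRCh38.p14), matched by gene identifier for use as names and sequence only. Some genes of the lists are counted in them but not reported here by name.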

Additional observations from a re-analysis of the deposited data

Results flagged for a closer look

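The S404A addback line and another knockout-derived line differed in their distance from Scramble in 5 cases, each tested directly with edgeR's quasi-likelihood test between the lines. PNPLA2 was higher in KO_S404A than in KO by 5.19 on the log2 scale (adjusted p = 4.71e-08), higher than in KO_S47A by 1.68 (adjusted p = 0.0109) and higher than the mean of KO, KO_WT and KO_S47A by 2.59 (adjusted p = 8.41e-07), in 3 of 3 libraries each. CCDC85A was higher in KO_S404A than in KO by 1.71 (adjusted p = 0.00735), with 2.17, 2.61 and 2.44 CPM beside a mean of 0.73 CPM. WLS was higher by 1.04 (adjusted p = 0.00365), with 11.8, 12.3 and 10.7 CPM beside a mean of 5.65 CPM. With 3 libraries per line, no test for a single divergent library was made.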

How the results depend on the processing

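Against Scramble, 443 genes were called. The count was 1522 with a replicate block, 981 with libraries 1 and 2 only, 894 with DESeq2 and 135 in the fit of the 2 lines only. Leaving out 1 library of these 2 lines at a time gave 240 to 374. All 443 genes were also called by DESeq2 and under the block, and they include 132 of the 135. RLE size factors (481), no filter (371), the stricter filter (465) and leaving out chromosome 22 genes (395) stayed within 1.5 times. Against the mean of the other knockout-derived lines the count was 1, and 2 with the block (PNPLA2 and KCNH8) or with DESeq2 (PNPLA2 and WLS). Replicate numbers were checked for pairing: deviations of same-numbered KO_S404A and Scramble libraries correlated over genes at 0.278, 0.0743 and 0.573. KO_S404A library 1 correlated best with Scramble library 2 (0.397), so numbers 1 and 2 do not pair the libraries. Library 3 deviated alike in both lines, since KO_S404A library 3 correlated at -0.3 and -0.408 with Scramble libraries 1 and 2. The main fit has no term for that shared deviation. With the block 3 androgen-responsive genes were called higher and 13 lower, 1 ATF4 gene higher and 2 replication and mitosis genes lower. Of 1044 values of the 75 named genes under the alternatives, 940 kept their side of the threshold, 102 lost their call and 2 gained one (ABHD6 with the block and DESeq2). Among values called in either fit 0 reversed direction. A small sign change in a gene that neither fit called would be counted among the 940. Of 56 called named genes 33 kept their call throughout. No alternative moved the median of all genes above 0.0401. The median interval halfwidth of 0.36 on the log2 scale is not adjusted for the number of genes tested. A gene with that interval had to differ by more than 0.36 to be called. In the simulated data 60% of 2-fold changes were recovered.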

Other observations

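Stress and growth lists held no call in the main edgeR fit. EdgeR and DESeq2 both called 0 of 47 ATF4 and amino acid response genes and 0 of 49 DNA replication and mitosis genes, with 0 at an unadjusted p under 0.05. Without library 3 of every line edgeR called 5 of the ATF4 genes higher and 3 of the replication and mitosis genes lower. With the replicate block it called 1 ATF4 gene higher, 2 replication and mitosis genes lower and 3 endoplasmic reticulum chaperone and unfolded protein response genes lower. ASNS, asparagine synthetase, was at 486, 542 and 149 CPM in Scramble and at 697, 532 and 96.8 CPM in KO_S404A (adjusted p = 0.952). MKI67, a marker of cycling cells, was at 173, 142 and 256 CPM in Scramble and at 96.7, 184 and 362 CPM in KO_S404A (adjusted p = 0.928). Library 3 thus had the lowest ASNS and the highest MKI67 of either line. HSPA5, the main chaperone of the endoplasmic reticulum, stood at 2591, 2872 and 1743 CPM in Scramble and at 5142, 2601 and 1877 CPM in KO_S404A (adjusted p = 0.693), and edgeR called 0 of 31 genes of its list (2 lower at an unadjusted p under 0.05, 1 lower with DESeq2). These 3 genes were chosen after their values were seen.

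The remaining lists are given beside 3.11% of all genes called and 15.7% at an unadjusted p under 0.05. EdgeR called 0 of 28 hypoxia genes (9 lower at an unadjusted p under 0.05, 2 lower with DESeq2), 0 of 43 lysosome and autophagy genes (1 higher and 2 lower, 2 lower with DESeq2), 0 of 31 NRF2 genes (1 higher and 3 lower, 1 lower with DESeq2), 0 of 33 p53 targets (5 higher and 1 lower, 1 higher with DESeq2), 0 of 29 immediate early genes (1 higher and 2 lower, the same numbers with DESeq2) and 0 of 17 replication-dependent histone genes (0 at an unadjusted p under 0.05, 0 with DESeq2). Without library 3 of every line edgeR called 5 p53 targets higher and 1 lower, and at most 2 members of each of the other lists of this kind. With the replicate block it called 6 hypoxia genes lower, 4 NRF2 genes lower and 5 p53 targets higher. It also called 1 lysosome and autophagy gene higher and 2 lower, 1 immediate early gene higher and 1 lower, and 2 histone genes lower. Of 12 NF-kB and cytokine genes ICAM1, an adhesion receptor, rose from 24.7, 28.2 and 27.3 CPM to 37.4, 37.4 and 35.05 CPM (log2 fold change 0.45, adjusted p = 0.0139), a call lost without Scramble library 1 (0.107) and in the fit of the 6 libraries alone (0.161). Among 24 synaptic vesicle and synaptotagmin genes SYT4 and SYT9 fell and SV2C rose, the latter 2 under 1 CPM throughout. PDGFRB was the 1 called gene of 7 tested markers of stroma, endothelium and blood (0.69, adjusted p = 0.0362), a call lost without any 1 Scramble library or KO_S404A library 1 or 2 (0.0745 to 0.148) and in the fit of the 6 libraries alone (0.225). The PDGFRB call was also lost without the filter on low counts (0.067) and with libraries 1 and 2 only (0.0805). Of 11 markers of non-prostate epithelial lines PAX2, under 1 CPM in all 6 libraries, rose and MAGEA4 fell.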
